A study of Mus musculus with 11 samples.

Results

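The acute-phase protein genes described here are 10 genes: the serum amyloid A genes Saa1, Saa2, Saa3 and Saa4, the orosomucoid genes Orm1, Orm2 and Orm3, and Lcn2, Hp and Steap4. They were chosen by name with earlier results of these data known, so shares of all tested genes given below are for scale only. All 10 were found among the 55414 genes of the count table and were among the 17038 genes tested. RNA was measured by sequencing of poly(A) RNA in 11 whole livers of male mice. All 11 mice, the chow mice included, carried Clec4f-DTR, in which the promoter of Clec4f, a gene of the resident macrophages of the liver (Kupffer cells), drives a receptor for diphtheria toxin (DT). The livers came from 3 mice on chow (chow livers), 4 mice on western diet with alcohol and serial saline injections (saline livers) and 4 mice on that diet with serial DT injections (DT livers), with diets begun at 8 weeks of age and kept for 16 weeks. The labels state no injections for the chow mice and number the livers without naming animals, so the spread between livers may in part be technical.

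Acute-phase proteins are plasma proteins that hepatocytes make in greater or smaller amounts during infection and tissue injury. Interleukin-6 and its relatives act through the receptor subunit gp130, the JAK kinases and STAT3, and interleukin-1 and tumour necrosis factor act through NF-kB, with C/EBP factors and the glucocorticoid receptor acting on many of the same genes. In the mouse, Saa1 and Saa2 are among the most inducible of these genes, and Saa4 is the constitutive member of its family.

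The upstream sequence of 5 members is shown because of their levels. Saa1 and Saa2 moved together, and Saa3, on the same chromosome, fell with them in saline against chow livers. Saa4, also on that chromosome, was not called, and Lcn2 was the member called between DT and saline livers. Each sequence is the 250 bases before the gene's start, 5′ to 3′ on the gene's strand. The source is RefSeq on build GRCm38.p6, an earlier build than that of the counts. RefSeq promoters were matched for 8 of the 10 members, not for Orm1 and Hp. Capitals mark matches on either strand to TTGCNNAA, a C/EBP-type pattern.
Saa1 promoter (chr7:46742981-46743230, minus strand): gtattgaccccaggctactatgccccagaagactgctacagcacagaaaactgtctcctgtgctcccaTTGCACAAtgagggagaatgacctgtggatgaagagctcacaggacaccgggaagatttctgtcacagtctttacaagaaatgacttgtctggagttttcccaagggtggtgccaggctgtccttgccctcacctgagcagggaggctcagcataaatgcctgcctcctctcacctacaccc
Saa2 promoter (chr7:46751583-46751832, plus strand): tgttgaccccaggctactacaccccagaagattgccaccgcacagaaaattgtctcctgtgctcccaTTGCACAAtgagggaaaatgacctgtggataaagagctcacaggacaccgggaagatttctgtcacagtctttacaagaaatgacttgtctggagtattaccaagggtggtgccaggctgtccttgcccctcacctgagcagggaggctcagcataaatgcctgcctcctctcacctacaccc
Saa3 promoter (chr7:46715677-46715926, minus strand): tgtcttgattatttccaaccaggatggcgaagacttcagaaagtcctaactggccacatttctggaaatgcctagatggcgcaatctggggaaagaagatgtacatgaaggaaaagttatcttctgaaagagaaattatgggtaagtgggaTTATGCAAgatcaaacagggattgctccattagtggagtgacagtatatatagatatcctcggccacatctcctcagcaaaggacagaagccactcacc
Saa4 promoter (chr7:46732604-46732853, minus strand): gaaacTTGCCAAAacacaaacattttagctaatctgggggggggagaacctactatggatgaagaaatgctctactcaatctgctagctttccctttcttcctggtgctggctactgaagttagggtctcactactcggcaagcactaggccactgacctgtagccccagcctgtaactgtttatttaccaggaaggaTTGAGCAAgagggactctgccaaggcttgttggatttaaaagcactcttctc
Lcn2 promoter (chr2:32387740-32387989, minus strand): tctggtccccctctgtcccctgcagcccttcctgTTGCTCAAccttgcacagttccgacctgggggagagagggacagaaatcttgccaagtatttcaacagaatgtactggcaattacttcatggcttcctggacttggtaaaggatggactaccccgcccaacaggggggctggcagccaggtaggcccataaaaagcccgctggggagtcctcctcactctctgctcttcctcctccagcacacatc
The Saa1 and Saa2 sequences were 95.6% identical over 249 aligned bases, and those of Orm2 and Orm3 were 89% identical over 245. TTGCNNAA was the last of 9 patterns searched, and it was picked by eye from these promoters after an earlier C/EBP-type pattern, TTNNGNAAT, had matched 4 of 8 members (Saa1, Saa2, Orm2 and Steap4; 10.2% of all promoters of the same length). Its match in 8 of 8 members, where 9.56% of 32851 promoters hold it, was therefore set by the choice of pattern and is given only to explain the capitals. The other C/EBP-type pattern, TTGCGCAAT, matched no member (0.0487% of all promoters). The NF-kB-type patterns, GGG and TTTCC separated by 2 bases (1.41%) and GGGNNTTCC (4.98%), and the STAT-type pattern TTCNNNGAA (7.02%) each matched Steap4 alone, and its wider form, TTC and GAA separated by 4 bases (5.85%), matched Lcn2 alone. TATAAA matched Orm2, Orm3 and Steap4 (12.4%), and the glucocorticoid receptor-type pattern, GNACA and TGTNC separated by 3 bases, matched none (0.387%). Both strands were searched, and the C/EBP-type patterns can match the same bases.

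The members made up 0.454% to 0.922% of all counts in the chow livers, 0.257% to 0.491% in the saline livers and 0.436% to 0.669% in the DT livers. Totals per liver ran from 43995217 to 58089531 counts. In a principal component analysis of the 500 most variable genes, DT livers 1, 3 and 4 lay apart from the other livers on the first component (75.9% of the variance), and DT liver 2 lay near the saline livers. Clec4f itself, whose promoter drives the receptor, stood at 43.1 to 49.1 CPM in the saline livers and at 6.18 to 15.2 CPM in the DT livers, a log2 fold change of -2.28 ± 0.24 (SE, adjusted p = 0.00125). Levels are TMM-normalised CPM, the counts of a gene scaled to a common library size. A gene is said to have risen or fallen, and is called, when its adjusted p in edgeR's quasi-likelihood test was below 0.05. In whole liver, fewer cells of a type and less RNA per cell cannot be told apart.

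Divided by gene length, Hp had the highest mean level of the 10 genes in each group, at 2812 CPM per kilobase of exon in chow, 1621 in saline and 1808 in DT livers. Saa3 had the lowest mean level per kilobase in the saline (3.04) and DT (3.48) livers. The places between them depended on whether the length was that of all exons or of the longest coding transcript. In chow livers Saa1 was below Orm1 on the former (593 against 1317 CPM per kilobase) and above it on the latter (2414 against 1317).

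**Figure D1:**
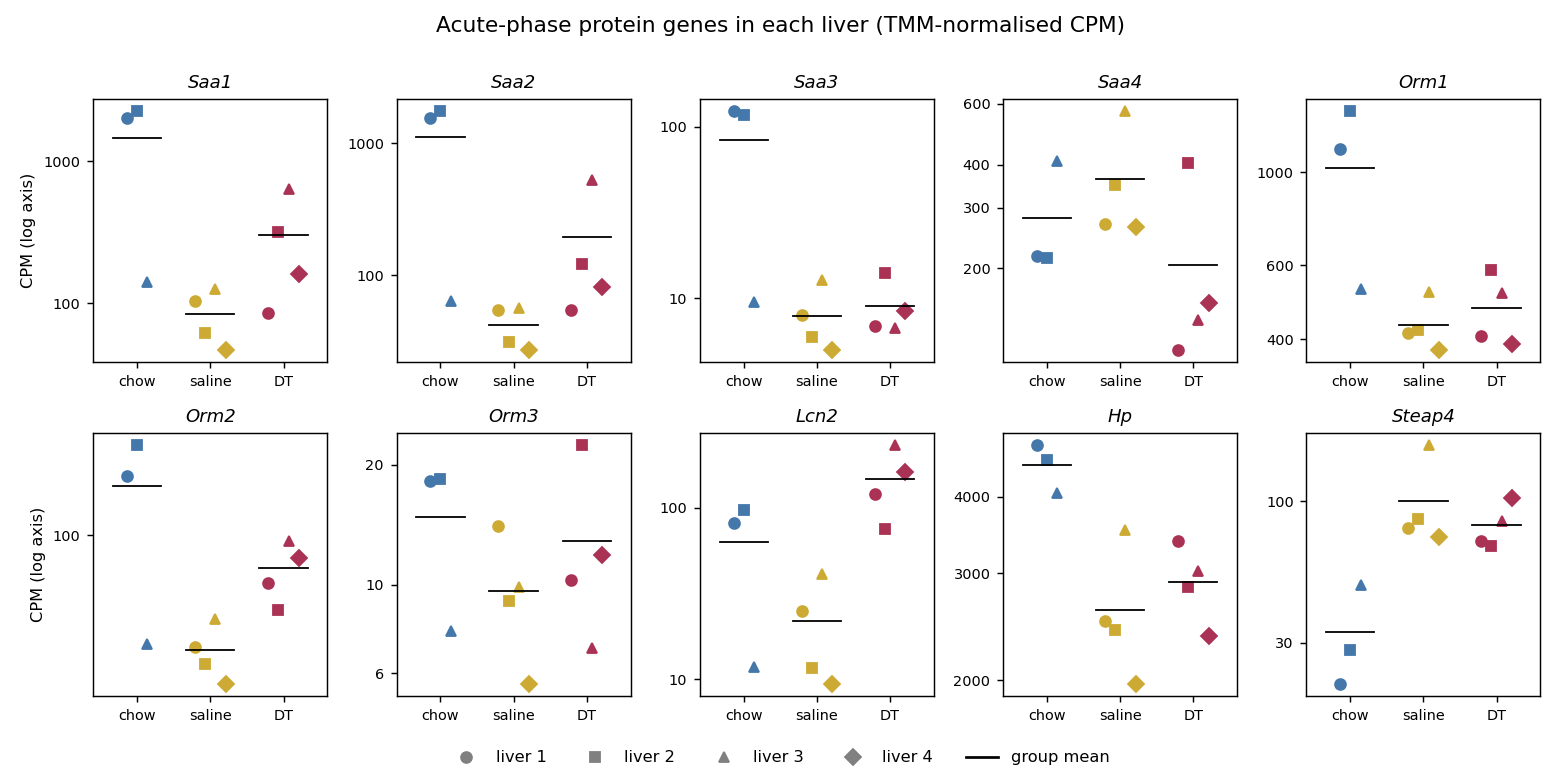
Level of each of the 10 genes in each liver, in TMM-normalised CPM on log axes that differ between panels. Each symbol is 1 liver and each black line a group mean. For Saa1, Saa2, Saa3, Orm2 and Lcn2, chow livers 1 and 2 sit far above chow liver 3, which sits near the saline livers.

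Western diet with alcohol was compared with chow in the saline livers. Of the 10 genes, 6 were lower (Saa1, Saa2, Saa3, Orm1, Orm2 and Hp), 1 was higher (Steap4) and 3 were not called, while 5.58% of all tested genes were called (3.13% lower and 2.45% higher). The median log2 fold change of the members was -1.39, and that of all tested genes 0.00. The groups did not overlap for 5 members, where 30.4% of all tested genes did not, with 4 of them lower (15.6% of all tested genes) and 1 higher (14.8%). The coefficient of variation among chow livers was 40.1% to 82.1% for 9 of the members and 9.12% for Hp.

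Saa1 and Saa2 encode the inducible serum amyloid A proteins carried on high-density lipoprotein. In chow livers 1, 2 and 3 Saa1 stood at 2014, 2256 and 141 CPM, and saline livers 1 to 4 had 103, 61.4, 125 and 46.3 CPM. All 3 chow livers were above all 4 saline livers, but chow livers 1 and 2 exceeded chow liver 3 by 14.3 and 16 times. The fall in Saa1 was 17.5-fold (log2 fold change -4.13 ± 0.86, adjusted p = 0.018). Saa2 stood at 1556, 1744 and 63.4 CPM in chow and at 54.2, 31.3, 56.5 and 26.9 CPM in saline livers. Again the groups did not overlap, and chow liver 3 was much closer to the saline livers than to the other chow livers. Saa2 fell 26.6-fold (log2 fold change -4.73 ± 1.01, adjusted p = 0.02).

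Saa3, which in the mouse is made largely outside hepatocytes, by macrophages and adipocytes among others, stood at 123, 117 and 9.48 CPM in chow and at 8.03, 5.94, 12.7 and 4.98 CPM in saline livers. Chow liver 3 lay within the range of the saline livers. The log2 fold change of Saa3 was -3.39 ± 0.66 (adjusted p = 0.0135). Saa4 went the other way within the chow group, at 218 and 214 CPM in chow livers 1 and 2 and 411 CPM in chow liver 3. Its saline livers stood at 269, 349, 572 and 263 CPM, overlapping with chow. Saa4 was not called (log2 fold change 0.37 ± 0.44, 95% interval -0.59 to 1.33, adjusted p = 0.692).

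The orosomucoid genes encode alpha-1-acid glycoproteins, which bind lipophilic and basic drugs in plasma. Orm1 stood at 1139, 1398 and 526 CPM in chow and at 415, 421, 519 and 376 CPM in saline livers. Chow liver 3 was just above the highest saline liver. The log2 fold change of Orm1 was -1.24 ± 0.28 (adjusted p = 0.0258). Orm2 had a wider spread, at 220, 333 and 23.7 CPM in chow and 22.8, 18.2, 32.8 and 13.9 CPM in saline livers. Chow liver 3 was again inside the saline range. Orm2 had a log2 fold change of -3.13 ± 0.65 (adjusted p = 0.0179). Orm3, at 18.2, 18.4 and 7.66 CPM in chow and 14, 9.09, 9.90 and 5.64 CPM in saline livers, overlapped between the groups and was not called (log2 fold change -0.61 ± 0.42, adjusted p = 0.446).

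Lcn2 encodes lipocalin 2, which binds bacterial siderophores and is also abundant in neutrophils. It stood at 81.5, 97.7 and 11.8 CPM in chow and at 25.1, 11.6, 41.2 and 9.37 CPM in saline livers. The groups overlapped through chow liver 3, and Lcn2 was not called (log2 fold change -1.54 ± 0.65, adjusted p = 0.203). Hp encodes haptoglobin, which captures free haemoglobin. Hp stood at 4875, 4607 and 4066 CPM in chow and at 2500, 2421, 3524 and 1973 CPM in saline livers. Hp differed least among the chow livers, and every chow liver was above every saline liver. The log2 fold change of Hp was -0.79 ± 0.21 (adjusted p = 0.0491).

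Steap4 encodes an endosomal metalloreductase that reduces iron and copper, and so not a plasma protein like those described above. It stood at 21.1, 28.1 and 49.1 CPM in chow and at 80.1, 86.0, 162 and 74.1 CPM in saline livers. It was the member that rose, with no overlap (3.07-fold, log2 fold change 1.62 ± 0.33, adjusted p = 0.0178). Chow liver 3 was the highest chow liver for Steap4 and Saa4, and the lowest for the other 8 members.

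The 7 calls all ended when chow liver 1 or chow liver 2 was left out, with adjusted p from 0.0592 to 0.186, while the direction stayed. Some also ended without a saline liver: without saline liver 2 for Saa1, Saa2, Saa3, Orm1, Orm2 and Hp, without saline liver 4 for the same genes except Saa3, without saline liver 1 for Saa2, Orm1, Orm2 and Hp, and without saline liver 3 for Saa2, and the call of Hp further ended without chow liver 3, DT liver 3 or DT liver 4. With limma-voom and with no filter on low counts, the calls of Saa1, Saa2, Saa3 and Orm2 ended (adjusted p from 0.0536 to 0.104), with only the compared groups those of Saa3 and Orm2 ended (0.0551 and 0.0623), and under total count scaling that of Hp ended (0.103).

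**Figure D2:**
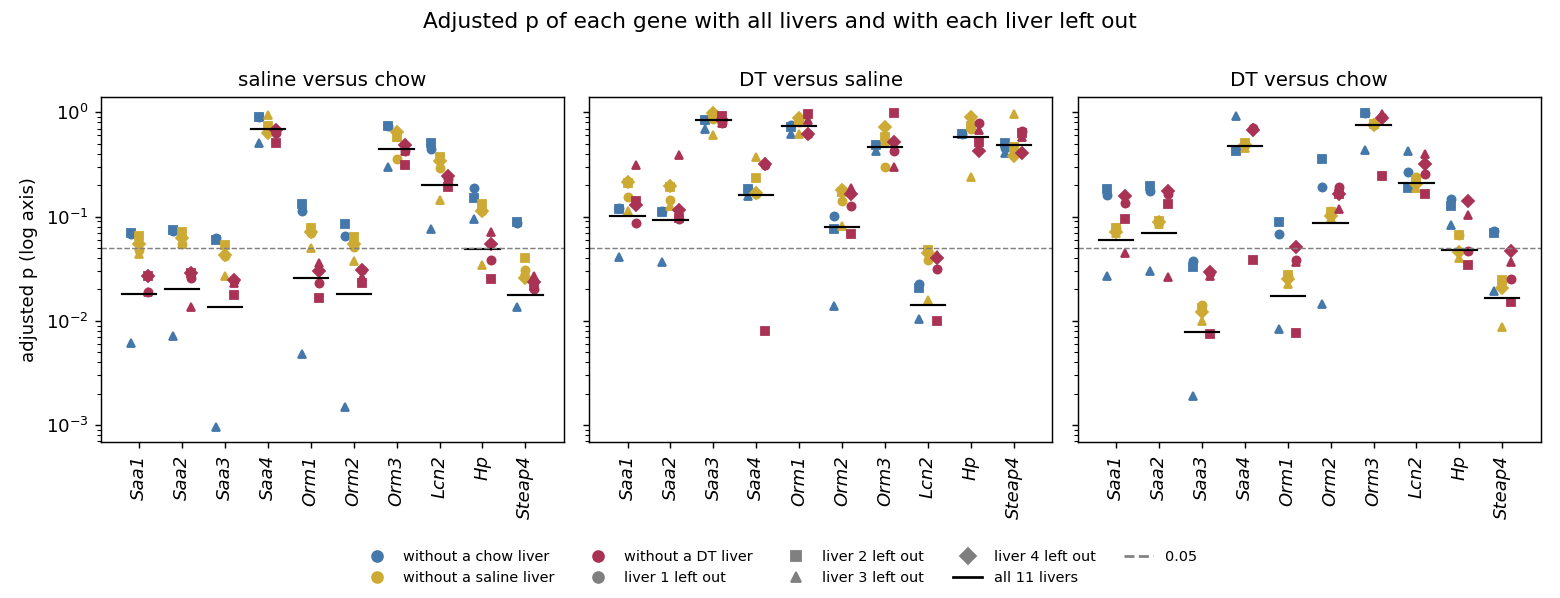
Adjusted p (log axis) of each gene in 3 comparisons, with all 11 livers (black lines) and with each liver left out (coloured symbols). The dashed line marks 0.05. For saline against chow, all called genes move above the line without chow liver 1 or 2, whereas Lcn2 in DT against saline stays below it in every refit.

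Markers of neutrophils, a source of Lcn2, were low in every chow liver. Their summed level was 4.84, 6.57 and 3.30 CPM in chow livers 1 to 3 and 3.44 to 5.94 CPM in the saline livers. S100a8, S100a9, Retnlg, Csf3r and Cxcr2 had counts in every chow and saline liver. The rest lacked counts in at least 1 of these livers, Mpo in all of them. Of the 12 markers, 7 were higher in both chow livers 1 and 2 than in chow liver 3 and 3 were lower in both, and their part in the level of Lcn2 was not tested. The floor of 3 counts corresponds to 0.0398 to 0.0773 CPM over the 11 livers and covers counting error only. The summed level of monocyte and macrophage markers was 250, 214 and 152 CPM in chow livers 1 to 3 and 174 to 311 CPM in saline livers, and their part in the level of Saa3 was not tested.

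DT injections were compared with saline injections on the same diet. Lcn2 rose, and edgeR called none of the other 9 genes in either direction, while 21.9% of all tested genes were called (14.3% higher and 7.62% lower). At an unadjusted p below 0.05, 4 members were higher (Saa1, Saa2, Orm2 and Lcn2) and 0 lower. All tested genes were not counted at an unadjusted p, here or below. In this comparison their share at that p is at least the 21.9% called, so the 4 members cannot be set against it. DESeq2 called Saa2 beside Lcn2, with 4911 genes called in all. With limma-voom Lcn2 alone was called, with 3109 genes in all. The median log2 fold change was 0.30 for the members and 0.02 for all tested genes. The groups did not overlap for Lcn2 and Orm2, both higher in DT livers, against 19.3% of all tested genes without overlap (9.33% higher and 9.97% lower).

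Lcn2 stood at 121, 75.5, 234 and 162 CPM in DT livers 1 to 4, against 9.37 to 41.2 CPM in saline livers. Every DT liver exceeded every saline liver, DT liver 2 included. The rise was 6.79-fold (log2 fold change 2.76 ± 0.65, 95% interval 1.35 to 4.18, adjusted p = 0.0143). The call held with each of the 11 livers left out, with a highest adjusted p of 0.048 without saline liver 2, and ended with no filter on low counts (adjusted p = 0.0573). Neutrophil markers summed to 7.87, 4.14, 14.1 and 10.5 CPM in DT livers 1 to 4. Of the 12 markers 7 could be tested, and edgeR called 1, Retnlg, higher and 0 lower. At an unadjusted p below 0.05, 4 were higher, as were 3 with DESeq2 and 1 with limma-voom. Retnlg passed the filter through DT livers 1, 3 and 4 (0.328 to 0.791 CPM), against at most 0.185 CPM in chow and saline livers. Mpo had counts in DT livers 1, 3 and 4 and none in DT liver 2. Cholangiocyte markers summed to 397, 49.4, 257 and 446 CPM in DT livers 1 to 4, against 37.2 to 63.6 CPM in saline livers, and all 8 were called higher. Stellate and fibroblast markers summed to 629, 244, 605 and 715 CPM, against 149 to 295 CPM in saline livers, and 7 of 8 were called higher. Monocyte and macrophage markers summed to 507, 207, 386 and 453 CPM, against 174 to 311 CPM, and 4 of 9 were called higher and 1 lower. DT liver 2 had Lcn2 at 3.46 times the saline mean, with all 4 sums inside the saline ranges, although 2 neutrophil, 4 cholangiocyte, 3 stellate and fibroblast, and 2 monocyte and macrophage markers were above every saline liver in it. The part of these cells in the level of Lcn2 was not tested.

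Orm2 stood at 53.4, 37.1, 93.2 and 73.9 CPM in DT livers and at most 32.8 CPM in saline livers. The difference did not pass the threshold (log2 fold change 1.55 ± 0.59, adjusted p = 0.0789). Saa1 stood at 85.7, 319, 634 and 161 CPM in DT livers, 3 of them above the highest saline liver. DT liver 1 lay inside the saline range, and Saa1 was not called (log2 fold change 1.84 ± 0.76, 95% interval 0.18 to 3.49, adjusted p = 0.101). Saa2 stood at 54.3, 122, 522 and 81.5 CPM in DT livers. DT liver 3 was far above the other DT livers for Saa2, and the gene was not called (log2 fold change 2.21 ± 0.88, adjusted p = 0.0918). With chow liver 3 left out of the fit that all 3 groups share, Saa1, Saa2 and Orm2 were called, at adjusted p = 0.0409, 0.0368 and 0.0139.

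Saa3, at 6.96, 14.1, 6.72 and 8.47 CPM in DT livers, overlapped with the saline livers (log2 fold change 0.19 ± 0.59, 95% interval -1.10 to 1.49). Saa4 stood at 116, 404, 142 and 159 CPM. DT livers 1, 3 and 4 were below all 4 saline livers, DT liver 2 was among them, and Saa4 was not called (log2 fold change -0.83 ± 0.41, adjusted p = 0.16). Without DT liver 2, Saa4 was called lower, at a log2 fold change of -1.39 and an adjusted p of 0.00802.

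Orm1 (406, 585, 516 and 390 CPM in DT livers 1 to 4), Orm3 (10.3, 22.4, 6.93 and 11.8 CPM) and Hp (3386, 2843, 3019 and 2369 CPM) overlapped with the saline livers. Their log2 fold changes were 0.13 ± 0.26, 0.41 ± 0.39 and 0.16 ± 0.20. The 95% interval for Hp, -0.27 to 0.58, is the narrowest among the 10 genes in this comparison. Steap4 stood at 71.2, 68.3, 84.6 and 103 CPM and overlapped as well (log2 fold change -0.30 ± 0.29, adjusted p = 0.482), and its direction turned under total count scaling (0.05) and without saline liver 3 (0.01).

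**Figure D3:**
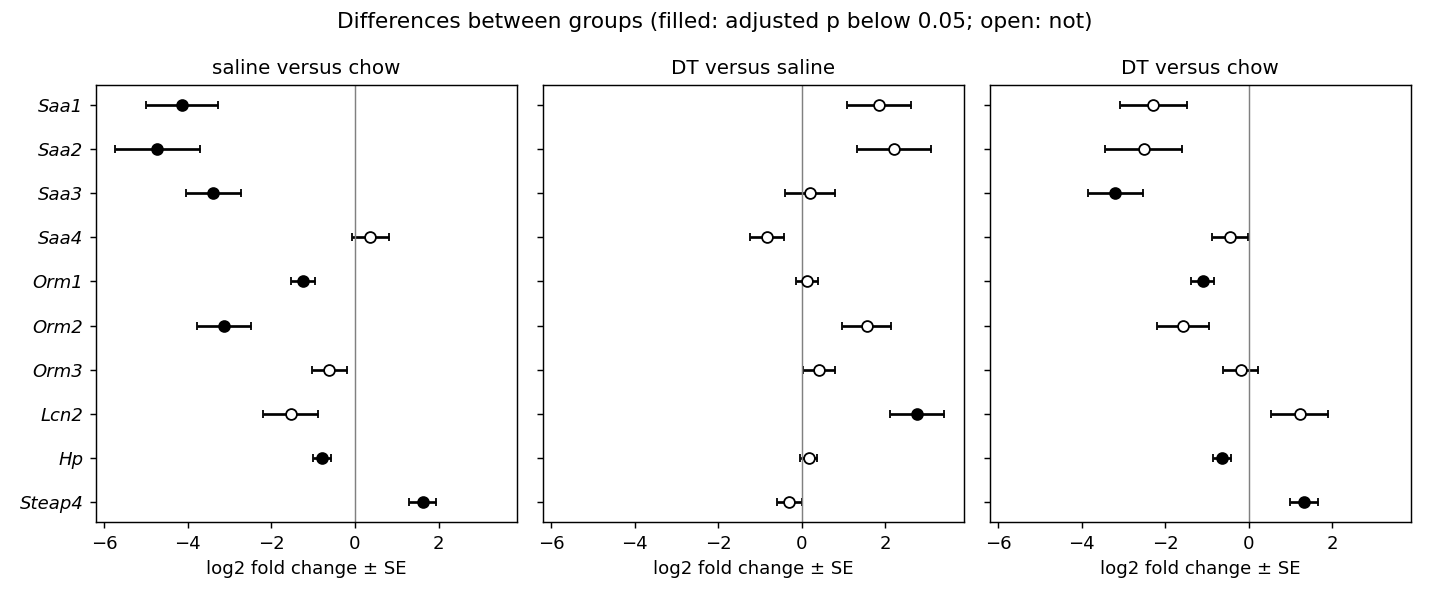
Log2 fold change with its standard error (horizontal axis) of each gene in 3 comparisons. Filled points have an adjusted p below 0.05. The members lie mostly left of 0 in saline against chow, and Lcn2 alone is filled in DT against saline (2.76 ± 0.65).

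DT livers were also set against chow livers, the same 3 that serve as the reference above, so the comparisons against chow are not independent. Steap4 was higher and Saa3, Orm1 and Hp were lower, so 4 of 10 members were called where 23.0% of all tested genes were (14.8% higher and 8.16% lower). The median log2 fold change was -0.88 for the members and -0.02 for all tested genes. The groups did not overlap for Hp (lower, as for 14.4% of all tested genes) and Steap4 (higher, as for 14.8%), which is 2 of 10 members where 29.2% of all tested genes did not overlap.

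Saa3 fell 9.18-fold (log2 fold change -3.20 ± 0.66, adjusted p = 0.00785), with chow liver 3 inside the range of the DT livers, and this call held with each liver left out. Orm1 had a log2 fold change of -1.11 ± 0.28 (adjusted p = 0.0172), Hp of -0.64 ± 0.21 (adjusted p = 0.0478) and Steap4 of 1.32 ± 0.33 (adjusted p = 0.0165). Those 3 calls each ended without chow liver 1 or chow liver 2, that of Orm1 also without DT liver 4 (adjusted p = 0.051), and that of Hp also without chow liver 3, saline liver 1 or 2, or DT liver 3 or 4. Under total count scaling the log2 fold changes of Orm1 and Hp were -0.66 and -0.17, and both calls ended (adjusted p = 0.0683 and 0.536). Both also ended with only the compared groups (0.0599 and 0.0845), and that of Hp with limma-voom (0.0535) and with no filter (0.0522). Saa1 (-2.29 ± 0.80, adjusted p = 0.059), Saa2 (-2.52 ± 0.93, adjusted p = 0.07) and Orm2 (-1.58 ± 0.62, adjusted p = 0.087) had group means 4.9, 5.75 and 2.98 times below chow but were not called. Each of them had chow liver 3 below at least 1 DT liver. Without chow liver 3 all 3 were called lower (adjusted p = 0.0271, 0.03 and 0.0146), and Saa1 and Saa2 were called also without DT liver 3 (0.0446 and 0.0266) and with DESeq2 (0.0394 and 0.027). Lcn2 was the member with a higher estimate in DT than in chow livers beside Steap4 (log2 fold change 1.22 ± 0.68, adjusted p = 0.209), and DT liver 2 was below chow livers 1 and 2. Saa4 (-0.46 ± 0.43) was called lower only without DT liver 2 (adjusted p = 0.0382), and Orm3 (-0.20 ± 0.42) was not called with any liver left out.

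Close relatives can exchange reads. Of the 50-base windows of the longest coding transcript, 9.11% of those of Saa1 also occur in Saa2, 8.46% of those of Saa2 occur in Saa1, and 20.4% of those of Orm1 occur in Orm2, while Saa3 and Saa4 share none with another Saa gene. How the counting treated such reads is not stated, so the split between Saa1 and Saa2 and between Orm1 and Orm2 is uncertain. With the counts of Saa1 and Saa2 summed, the log2 fold change was -4.36 (adjusted p = 0.0186) for saline against chow, 1.97 (adjusted p = 0.0965) for DT against saline and -2.39 (adjusted p = 0.062) for DT against chow. With Orm1, Orm2 and Orm3 summed, these were -1.40 (adjusted p = 0.0219), 0.25 (adjusted p = 0.548) and -1.15 (adjusted p = 0.0208).

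The ratio of Saa2 to Saa1 in CPM differed between livers. It was 0.773 in chow livers 1 and 2 and 0.823 in DT liver 3, the 3 livers with the highest Saa1, and 0.382 to 0.634 in the other 8. Orm2 as a percentage of Orm1 was 19.3%, 23.8% and 4.5% in chow livers 1 to 3, 3.7% to 6.33% in saline livers, and 13.2%, 6.34%, 18.1% and 19% in DT livers 1 to 4. DT liver 2, with the highest Orm1 of the DT livers, had the lowest such percentage among them.

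How alike the members were over the 11 livers was described by the root mean square difference between their centred log2 CPM. Saa1 and Saa2 were closest (0.35), and Orm1 and Hp next (0.36), while Saa2 and Steap4 were farthest apart (2.68). Saa4 was nearer to Hp (0.78) than to Saa1 (2.09), its neighbour on chromosome 7. This measure is also small between genes that vary little, so a small value need not mean a shared pattern. The SD over the livers was 0.40 for Hp and 1.83 for Saa1, in log2 units. Outside the members, the nearest tested genes were Gm37928, Lcn12 and 5730420D15Rik for Saa1 (0.90 to 0.92, where the median tested gene was at 1.87), Myo18b, Tppp3 and Zfp641 for Lcn2 (0.51 to 0.63, median 1.61), and 1700056N10Rik, Mug-ps1 and Plpp5 for Orm1 (0.23 to 0.27, median 0.72). They were Kyat3, Capn10 and Ddx49 for Hp (0.12 to 0.20, median 0.58) and Fancb, Stx11 and Rnf145 for Steap4 (0.31 to 0.34, median 0.91). Several of these were near the floor, and those named for Lcn2 reached at most 1.34 CPM.

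A list of other acute-phase proteins that rise in inflammation, in mice or in other mammals, held 23 tested genes. Among these, edgeR called Itih3, Lbp and Fgl1 lower and 0 higher in saline than in chow livers (9 lower and 1 higher at an unadjusted p below 0.05, 5 and 1 with DESeq2, 3 and 0 with limma-voom). The call of Fgl1 held in 6 of 11 refits with a liver left out. Itih3, an inter-alpha-trypsin inhibitor heavy chain, stood at 1910, 2050 and 1560 CPM in chow and 703 to 859 CPM in saline livers (log2 fold change -1.26 ± 0.18, adjusted p = 0.0038), and its call held with each liver left out. Lbp, the lipopolysaccharide-binding protein gene, had a log2 fold change of -0.90 ± 0.17 (adjusted p = 0.0121), and its call ended without chow liver 1 (adjusted p = 0.0544) or 2 (0.0503). Chow liver 3 was not apart from the other chow livers for Lbp, at 227 CPM against 221 and 217 CPM. In DT against saline livers, Cd14 and Apcs were higher and Crp was lower among the 23, and the calls of Cd14 and Apcs held in 5 and 3 of 11 refits with a liver left out. Crp, which encodes C-reactive protein, stood at 154, 310, 157 and 167 CPM in DT livers and 309 to 330 CPM in saline livers (log2 fold change -0.69 ± 0.21, adjusted p = 0.0358), a call that held in 1 of those 11 refits. In DT against chow livers 6 were lower and 1 was higher, and of the 6, the call of Itih3 held in 9 and that of Lbp in 6 of the 11 refits. Of 11 tested genes of acute-phase proteins that fall in inflammation, edgeR called 0 in saline against chow (1 higher and 4 lower at an unadjusted p below 0.05, 2 lower with DESeq2, 0 with limma-voom) and 0 in DT against saline (1 lower at an unadjusted p below 0.05, 1 with DESeq2, 0 with limma-voom). In DT against chow 4 of the 11 (Fetub, Apoa1, Rbp4 and F12) were lower. The first 3 of these calls held in all 11 refits with a liver left out, and that of F12 in 6 (adjusted p up to 0.0776).

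Of 12 inducing cytokines 7 could be tested. Il6 was at most 0.0923 CPM in any liver, near the floor, and Il22 and Il17a had no counts. In saline against chow edgeR called 0 of the 7 (2 higher at an unadjusted p below 0.05, 1 with DESeq2, 0 with limma-voom). Against saline, DT livers had higher Clcf1 and Lif, cytokines that signal through gp130. Clcf1 stood at 12, 0.895, 11.7 and 11.2 CPM in DT livers and 0.325 to 1.12 CPM in saline livers (log2 fold change 3.58 ± 0.67, adjusted p = 0.00753), so DT liver 2 was inside the saline range. Lif stood at 0.836, 0.166, 0.452 and 0.954 CPM in DT livers. It had no count in the chow livers and had counts in 1 saline liver, at 0.0408 CPM, which is below the floor. Lif thus entered the test through the DT livers, where it was high, so its adjusted p of 0.008 is not separate evidence of a rise. It could be tested in 8 refits with a liver left out. In DT against chow Clcf1 and Lif were called higher as well, with the same limit for Lif. Clcf1 had a log2 fold change of 2.83 ± 0.72 there (adjusted p = 0.0175), a call that held in 8 of 11 refits.

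Among 23 receptors and transducers, Lifr, Cebpa and Nr3c1 were lower and Il22ra1 and Osmr higher in DT than in saline livers, and Il6ra, the interleukin-6 receptor, was lower in saline than in chow livers, a call that held in 1 of 11 refits with a liver left out. Lifr, the receptor subunit for Lif, stood at 73.3, 92.2, 78.1 and 81.2 CPM in DT livers and 165 to 227 CPM in saline livers (log2 fold change -1.18 ± 0.16, adjusted p = 0.00333). Every DT liver was below every saline liver. Cebpa, a C/EBP factor of mature hepatocytes, had a log2 fold change of -0.96 ± 0.18 (adjusted p = 0.00703), and Nr3c1, the glucocorticoid receptor, of -0.90 ± 0.19 (adjusted p = 0.00981). Cebpa averaged 399 CPM in chow, 630 in saline and 323 in DT livers, and Nr3c1 60.2, 98.7 and 52.9 CPM. Neither was called in DT against chow (adjusted p = 0.255 and 0.53). Hepatocyte markers summed to 104000 to 129000 CPM in chow, 91500 to 106000 in saline and 67700 to 92000 in DT livers. Of these 10 markers edgeR called 1, Apob, lower and 0 higher in DT than in saline livers. The part of hepatocytes in the levels of Lifr, Cebpa and Nr3c1 was not tested. Stat3 was not called in DT against saline (log2 fold change 0.33, adjusted p = 0.0926). In DT against chow Nfkbiz, Osmr and Tnfrsf1a were higher and Lifr and Hnf4a lower. Lifr had a log2 fold change of -1.03 ± 0.17 there (adjusted p = 0.00408), and its call held in all 11 refits with a liver left out. Those of Nfkbiz, Osmr and Tnfrsf1a held in 9, 6 and 7. Among 10 feedback and early target genes Fos was higher in saline than in chow livers, and Icam1 and Tnfaip3 were higher in DT than in saline livers. Those calls held in 6, 5 and 3 of 11 refits with a liver left out. In DT against chow 3 of the 10 were higher (Fos, Tnfaip3 and Icam1) and 0 lower, where 14.8% of all tested genes were higher. The log2 fold changes of Fos and Tnfaip3 were 4.25 ± 0.70 (adjusted p = 0.00408) and 2.09 ± 0.40 (adjusted p = 0.00608). Both calls held in all 11 refits, and that of Icam1 held in 5. Socs3, the STAT3-driven inhibitor, was not called in any of the 3 comparisons.

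**Figure D4:**
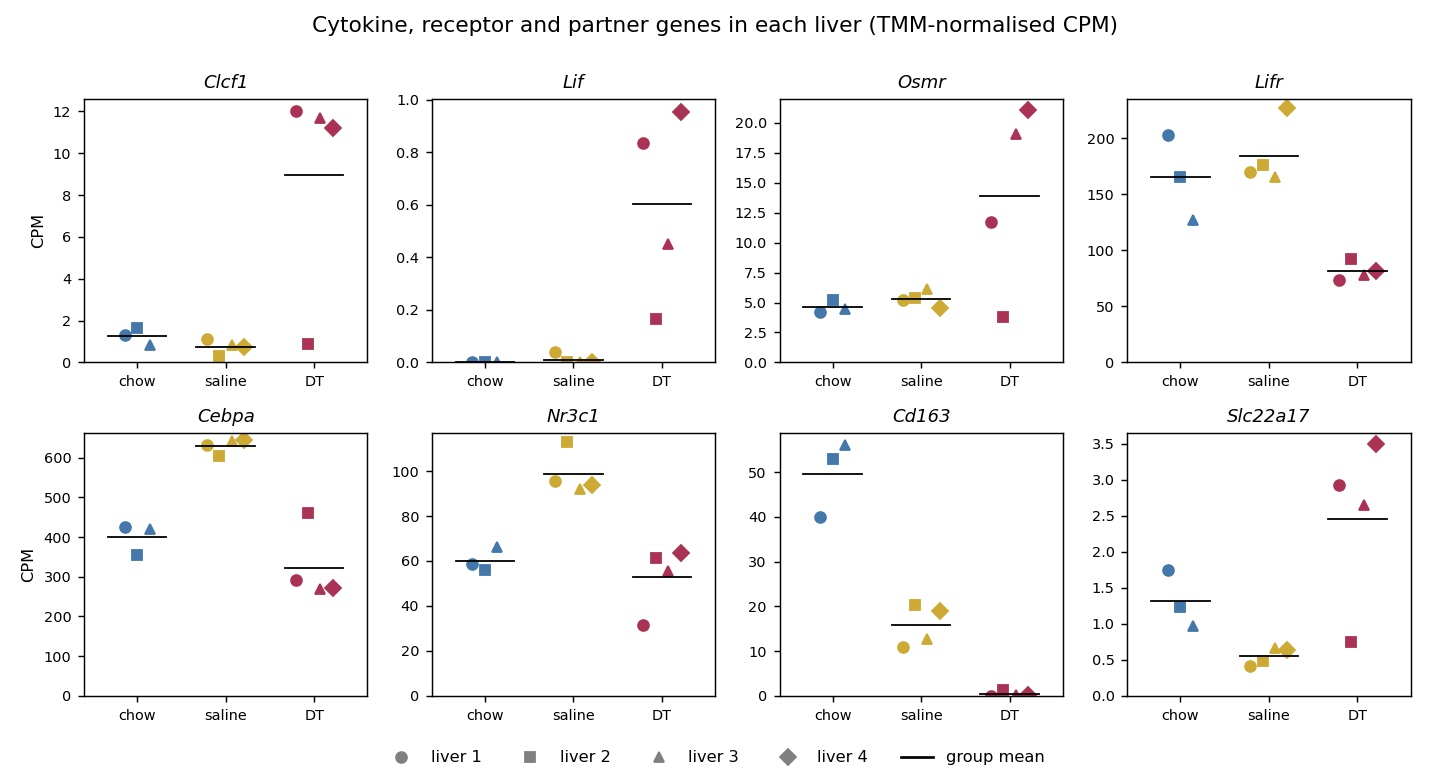
Level in each liver of 8 cytokine, receptor and partner genes, in TMM-normalised CPM on linear axes that start at 0. Symbols are livers and lines group means. Clcf1 in DT liver 2 lies inside the saline range and Osmr in DT liver 2 (3.75 CPM) below it, whereas Lifr is low in all 4 DT livers (73.3 to 92.2 CPM).

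Of 12 tested binding partners and relatives of the members, edgeR called 0 in saline against chow (2 higher and 3 lower at an unadjusted p below 0.05, 0 with DESeq2, 1 lower with limma-voom). In DT against saline 2 were lower (Cd163 and Lrp1) and 1 was higher (Slc22a17). The call of Lrp1 held in 2 of 11 refits with a liver left out (adjusted p up to 0.113) and ended under total count scaling (adjusted p = 0.643). Cd163, the macrophage receptor for haptoglobin bound to haemoglobin, stood at 11 to 20.3 CPM in saline livers and at 0, 1.25, 0.113 and 0.106 CPM in DT livers (log2 fold change -5.59 ± 0.80, adjusted p = 0.00396). Hp itself overlapped between these groups. Cd163 is also among the Kupffer cell markers, whose sum was 582 to 709 CPM in saline and 338 to 472 CPM in DT livers. Slc22a17, described as a receptor for lipocalin 2, rose with Lcn2 (log2 fold change 2.16 ± 0.43, adjusted p = 0.00868), at 2.93, 0.749, 2.65 and 3.50 CPM in DT livers against 0.408 to 0.658 CPM in saline livers. Steap2, a relative of Steap4, was not called in DT against saline (log2 fold change 0.85 ± 0.32, adjusted p = 0.0746). In DT against chow it was called higher (log2 fold change 1.34 ± 0.36, adjusted p = 0.0208). In that comparison 3 of the 12 were higher (Steap2, Hmox1 and Tlr2) and 1 was lower (Cd163), where 14.8% and 8.16% of all tested genes were. The calls of Steap2, Hmox1, Tlr2 and Cd163 held in 6, 7, 7 and 11 of 11 refits with a liver left out.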

How the data were processed

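RNA of 11 whole livers was sequenced, in groups of 3 chow, 4 saline and 4 DT livers taken from the sample titles. Per the submitters' processing notes, FastQC, STAR, featureCounts and build GRCm39 were used by the authors. Their versions, the annotation, the use of strand and how mates were counted are not given in the sources used here. The deposited values are raw counts per gene from the authors, 1 column per liver. Of counts from 1 to 19, 76.1% to 81.1% were even, so both mates of a pair may have been counted, and halved counts were tried. The extraction text in the labels also describes sorted CD45-positive cells for single-cell work, whereas the labels name whole liver, and hepatocyte markers summed to 67700 to 129000 CPM.

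Genes passing edgeR's filterByExpr (17038 of 28842 with any count) were fitted with TMM factors (0.85 to 1.30) and edgeR's robust quasi-likelihood model over the 3 groups together, with 8 residual degrees of freedom (edgeR 4.0.16, limma 3.58.1, R 4.3.3). Two-sided p-values received a Benjamini-Hochberg adjustment over all tested genes, with a threshold of 0.05. All 3 groups share 1 estimate of the spread. Gene lengths and overlaps were read from GENCODE on GRCm38, in which no gene overlaps a member. Promoters and patterns were compared with Biopython 1.88, and the patterns were first tried on windows that also held 50 bases after the start.

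The members, the 6 pathway lists and the 7 marker lists were chosen with earlier results of these data known. Named beside the members are Clec4f, Cd163, up to 4 genes with the smallest p of each list and comparison, and the 3 tested genes nearest to Saa1, Orm1, Lcn2, Hp and Steap4. Il6, Il22, Il17a, Stat3, Socs3, Mpo and other neutrophil markers were named after their values were seen. So were genes that a small count required, such as Osmr and Retnlg. No 2 livers of a group were copies: chi-square per degree of freedom between them was 27.7 to 510. Alternatives were RLE factors, total count scaling, DESeq2 1.42.0, limma-voom, no filter, only the compared groups, the replicate number as a block, halved counts, summed relatives and each liver left out. The procedure was tested on simulated data.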

Additional observations from a re-analysis of the deposited data

Results flagged for a closer look

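Of 20 groups of 4 livers (10 genes in saline and in DT livers), 3 had a liver far from the others by Dixon's ratio at its 95% critical value. Chance would flag about 1 in 20 groups if the values were normally distributed. The ratio was taken on CPM without logs, where high values stand out more, and the genes are not independent, so that rate is only a rough guide. Saa2 stood at 522 CPM in DT liver 3, where the other DT livers stood at 54.3 to 122 CPM. Saa4 stood at 404 CPM in DT liver 2, where the others stood at 116 to 159 CPM. Steap4 stood at 162 CPM in saline liver 3, where the others stood at 74.1 to 86 CPM. The chow group, with 3 livers, is too small for this rule.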

How the results depend on the processing

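Groups of 3 and 4 livers limit these results. With RLE factors and with halved counts no count of calls moved by over 1.5 times, and among the members Hp alone lost its calls with RLE factors (adjusted p = 0.055 and 0.0577). TMM and total count scaling placed the median of all genes at 0.00 and 0.13 (saline against chow), 0.02 and 0.36 (DT against saline) and -0.02 and 0.44 (DT against chow). They made 43.9% and 67%, 65.2% and 92.1%, and 64.5% and 94.8% of called genes higher.

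For saline against chow, 950 genes were called, and 1811 with DESeq2 and 3105 with only the compared groups. The 6 members that were lower became 2 (Orm1 and Hp) with limma-voom and 2 (the same genes) with no filter, and 4 with only the compared groups. For DT against saline, 3734 genes were called, and 5629 under total count scaling and 2303 with only the compared groups. The 1 member that was higher became 2 under total count scaling, 2 with DESeq2, 2 with only the compared groups and 0 with no filter. For DT against chow, 3919 genes were called, and 6536 under total count scaling and 2089 with only the compared groups. The 3 members that were lower became 1 under total count scaling, 5 with DESeq2 and 1 with only the compared groups. Under total count scaling the log2 fold change of Steap4 in DT against saline was 0.05 and that of Orm3 in DT against chow was 0.20, against -0.30 and -0.20. The cause of these changes was not tested.

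With each liver left out, genes called ran from 287 to 1924 (saline against chow), 1786 to 6824 (DT against saline) and 1786 to 6834 (DT against chow). The largest of these were without DT liver 2, and the smallest without chow liver 1 or, for DT against saline, without saline liver 2. Members higher and lower ran from 0 to 1 and 0 to 6, from 1 to 4 and 0 to 1, and from 0 to 1 and 1 to 5. The log2 fold change changed sign for Clec4f in saline against chow (-0.09 to 0.12), for Saa3 (-0.10 to 0.51) and Steap4 (-0.42 to 0.01) in DT against saline, and for Orm3 in DT against chow (-0.61 to 0.03), none of them called.

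With the replicate number as a block, 559 genes and 0 lower members were called for saline against chow, and 2210 genes and 1 lower member for DT against chow. Same-numbered livers did not deviate together: the correlation of their deviations was -0.16 to 0.18 over 10 pairs, and over 0.1 in 2, so the numbers were not taken to pair the livers.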
